A study of Caenorhabditis elegans with 9 samples.

Results

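The genes described here encode the proteins of the cytosolic ribosome of Caenorhabditis elegans. They were chosen by symbol: a gene was taken where it is named rps, rpl or rla and has a probeset assigned to it alone, and it was represented by the probeset of its own with the highest mean signal. This gave 75 of the 17118 genes tested, 30 of the small subunit (rps) and 45 of the large subunit (rpl). No gene is named rla in the annotation used, where the stalk proteins carry the symbol rplp, so the stalk genes are described beside the 75. Wild type N2 worms were kept in CeHM, a liquid medium in which they grow without bacteria, and were exposed for 6 h at 22 °C to sodium arsenite at 0.03% (w/v, the high dose) or at 0.003% (the low dose), or were not exposed (control). Each group had 3 samples, whose RNA was read on an Affymetrix C. elegans array each. The sources differ on the larval stage, which is L3 in the sample labels, L1 in the methods and L4 in the results of the study. The samples are labelled biological replicates and the design speaks of independent RNA extractions, but nothing says that they came from separate cultures, so the spread behind the p-values may be technical only.

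A ribosome has a small subunit, which reads the messenger RNA, and a large subunit, which joins the amino acids. Each subunit is built from ribosomal RNA and one copy of most of its proteins, so cells need these proteins in matched amounts, and their messenger RNAs are among the most abundant in a growing animal. In animals the production of ribosomal proteins is set in part through the TOR kinase, and stress that phosphorylates the initiation factor eIF2 lowers translation as a whole. An array measures the messenger RNA alone and says nothing of how it is translated.

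The values are the authors' log2 signals, so a difference of 1 is a 2 fold change of signal. The 9 arrays had medians between 8.42 and 8.52 over all probesets, and the correlation across genes, which are no independent replicates, was 0.940 to 0.952 between arrays of the same group. A gene was called where limma gave a Benjamini-Hochberg adjusted p of at most 0.05 over all 17118 genes and the change was at least 1.2 fold, 0.26 on the log2 scale. Markers of several tissues differed between the groups of whole worms. Of the hypodermis list, 3 of 5 genes were called lower at the high dose, and the list's mean log2 signal ran from 10.88 to 10.93 on high dose arrays, from 11.50 to 11.79 on low dose arrays and from 11.57 to 11.64 on control arrays. The germ line list had 3 of 6 genes called lower, with means of 11.39 to 11.52, 11.65 to 11.73 and 11.79 to 11.89 in the high dose, low dose and control groups. Lower calls at the high dose were also made for 3 of 4 oocyte, 2 of 5 body wall muscle and 2 of 6 intestine markers. Higher calls were made for 1 of 4 pharynx and 1 of 6 neuron markers. Of all genes, 20.0% were called at the high dose and 11.0% were called lower. At mean signals of 10 to 12, 31.6% of genes other than the ribosomal protein genes were called there. The share was 48.5% from 12 to 13 and 55.0% from 13 to 14. The median signal of each marker list lay between 10 and 14. No list was tested against these shares. None of the 5 sperm markers was called, although 3 had an unadjusted p under 0.05 at each dose, and the list's mean ran from 11.89 to 12.02 on high dose arrays, from 11.96 to 11.99 on low dose arrays and from 12.13 to 12.23 on control arrays. No marker of any of these lists was called at the low dose, where 1.55% of all genes were. All 4 oocyte markers lay below control there, each with an unadjusted p under 0.05 and with a median of -0.60. The mean of the oocyte list ran from 10.09 to 10.32 on high dose arrays, from 10.34 to 10.36 on low dose arrays and from 10.83 to 11.01 on control arrays, so that both doses lay clear of control. In such bulk samples fewer cells of a type and less RNA per cell cannot be told apart, and the part of these tissue differences in the values below was not tested.

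Of the 75 genes, 73 had a mean log2 signal between 14.98 and 15.86, and 62 of them were among the 100 genes with the highest signal on these arrays. The highest value of any probeset in the data was 16.44, so these genes lay near the top of the scale. The exceptions were rpl-41.1, with a mean of 13.69, and rpl-42, with a mean of 5.99. The signals of different probesets depend on their probes and are not compared here as amounts of RNA. Replicates lay close together: the SD within groups, pooled over the 3 groups, had a median of 0.094 over the 75 genes, against 0.274 over all genes and 0.097 over the 65 other genes with a mean of at least 15, a limit chosen after the levels were seen. Among these 65 are ribosomal protein genes with other symbols, such as rplp-0 of the stalk.

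**Figure D1:**
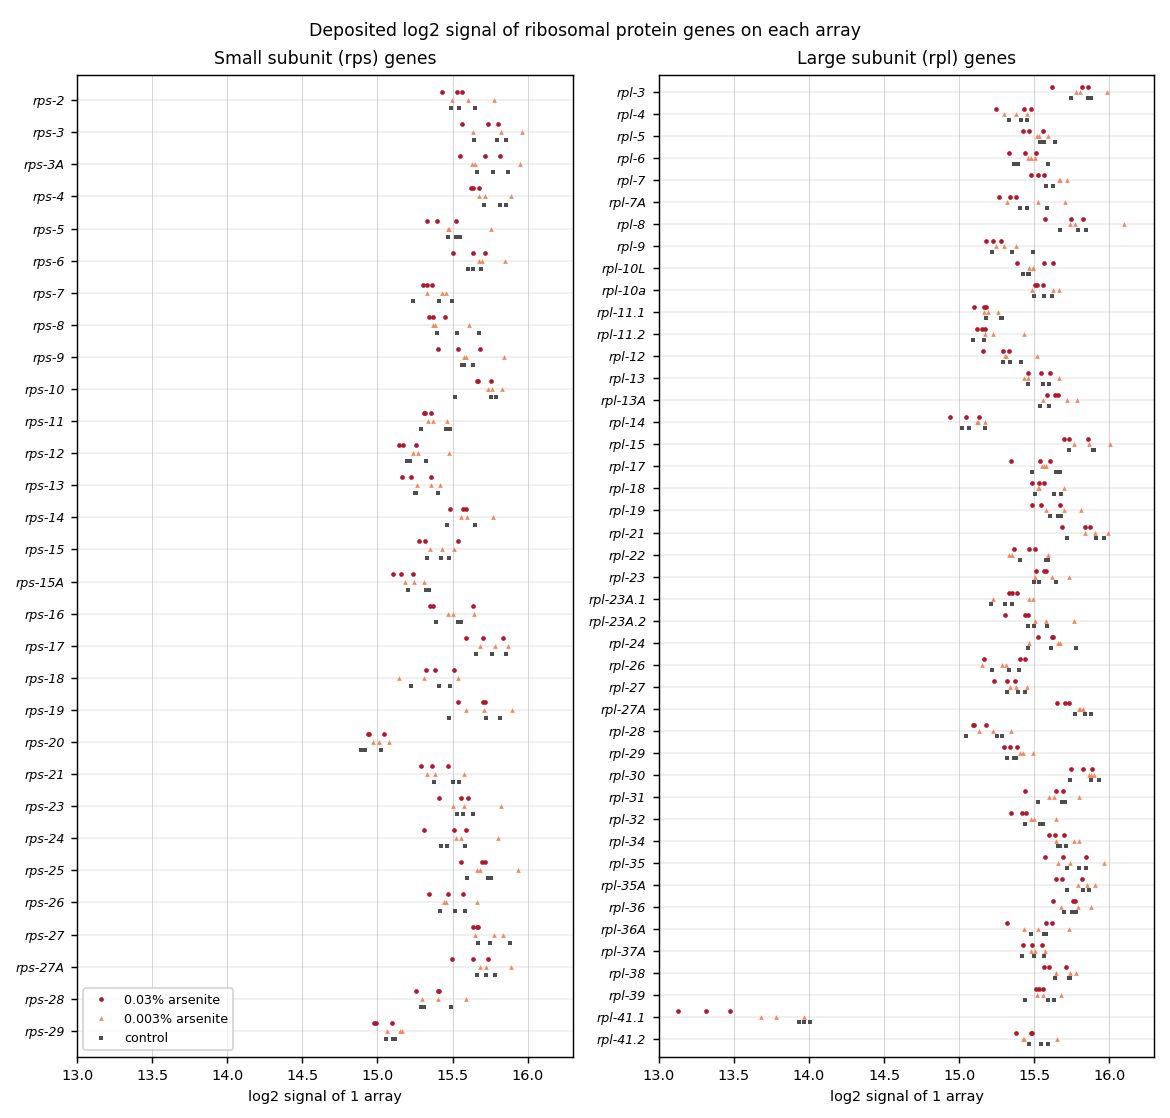
Log2 signal of 30 rps genes (left) and 44 rpl genes (right) on each of the 9 arrays, with circles for 0.03% arsenite, triangles for 0.003% and squares for control; rpl-42, at a mean of 5.99, lies off the scale and is left out. The symbols of the 3 groups lie among each other for nearly all genes, while the circles of rpl-41.1, at 13.13 to 13.47, lie to the left of its squares, at 13.932 to 14.004.

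At the high dose, 1 of the 75 genes was called different from control, where 20.0% of all genes were called. It was rpl-41.1, which was lower (11.0% of all genes were called lower), and none was called higher. An unadjusted p under 0.05 was found in limma for 1 of the 75 genes and for 31.5% of all genes. It was found for 4 of the 75 in the methods' analysis of variance without moderation, and for 2 with a variance trend and robust estimation. The share over all genes is given here for limma as first fitted only. Without moderation 2 of the 75 had an adjusted p of at most 0.05, and 1 of them also passed the fold threshold. The median log2 difference of the 75 genes was -0.05, as was that of all genes. Below 0 lay 67 of the 75 genes, where 9258 of all 17118 genes did. Leaving out rpl-41.1 and rpl-42, which were set aside after their values were seen, the differences ran from -0.15 to 0.08. The small subunit had a median of -0.05 over 30 genes and the large subunit -0.06 over 45 genes, without any rps gene called. The sign of these small values depended on how the arrays were scaled. After centring each array on the median of all genes, the median of the 75 genes stayed below 0, at -0.03, with 57 below 0. After quantile normalization it was 0.03, with 49 above 0, and after centring each array on other bright genes it was 0.01, with 40 above 0. Quantile normalization gives every array the same set of values. It can thus take away part of a shift shared by many of the brightest genes, and 72 of the 137 genes with a mean of at least 15 were among the 75. No direction is therefore given for the family at the high dose.

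**Figure D2:**
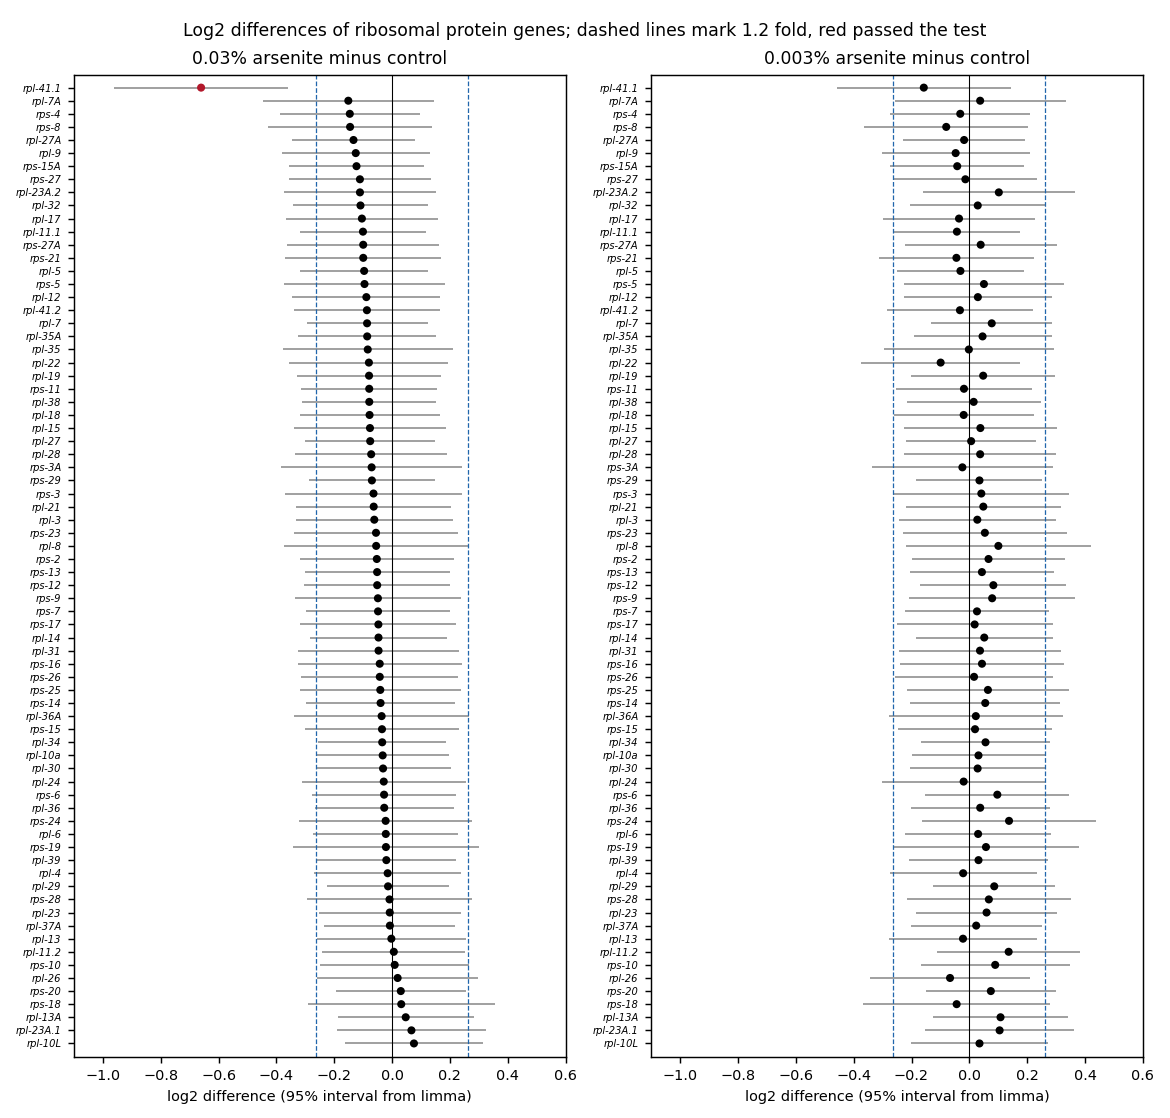
Log2 difference from control of 74 ribosomal protein genes at 0.03% (left) and 0.003% arsenite (right), with 95% intervals from limma, in the order of their difference at 0.03%; rpl-42, with the widest interval, is left out. Dashed lines mark 1.2 fold, and the one red point is rpl-41.1 at -0.66.

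The intervals limit what the absence of calls can show. Of the 75 genes, 9 had a 95% interval that lay wholly within 1.2 fold of control at the high dose, and 73 had one wholly within 1.5 fold. Under a variance trend with robust estimation 62 lay within 1.2 fold, and without moderation 43 did. Calls were also rare among other genes of like signal, meaning all genes outside the 75. These include ribosomal protein genes with other symbols, such as rplp-0, so they are not wholly apart from the family. Of the 65 other genes with a mean of at least 15, 3 were called at the high dose (4.62%), against 45.2% of the 168 genes between 14 and 15 and 55.0% of the 387 between 13 and 14. Those 3 genes, named here after their values were seen, were cpr-1, a cysteine protease, at -1.49 (SE 0.12, limma adjusted p = 1.55e-04), prdx-2, a peroxiredoxin, at 0.67 (SE 0.10, adjusted p = 0.0036), and the collagen col-38 at -0.38 (SE 0.11, adjusted p = 0.046). In each of them the group with the lower signal had a mean below 15: 14.34 for cpr-1 and 14.78 for col-38 at the high dose, and 14.69 for prdx-2 in control. Their means over the 9 arrays were 15.26, 15.03 and 15.08, so this follows largely from the size of the differences. The call of col-38 was made in 8 of 20 alternative fits only and was lost without any one high dose or control array or low dose replicate 2 (adjusted p up to 0.129). Whether the scale compressed differences at its top was not tested.

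**Figure D3:**
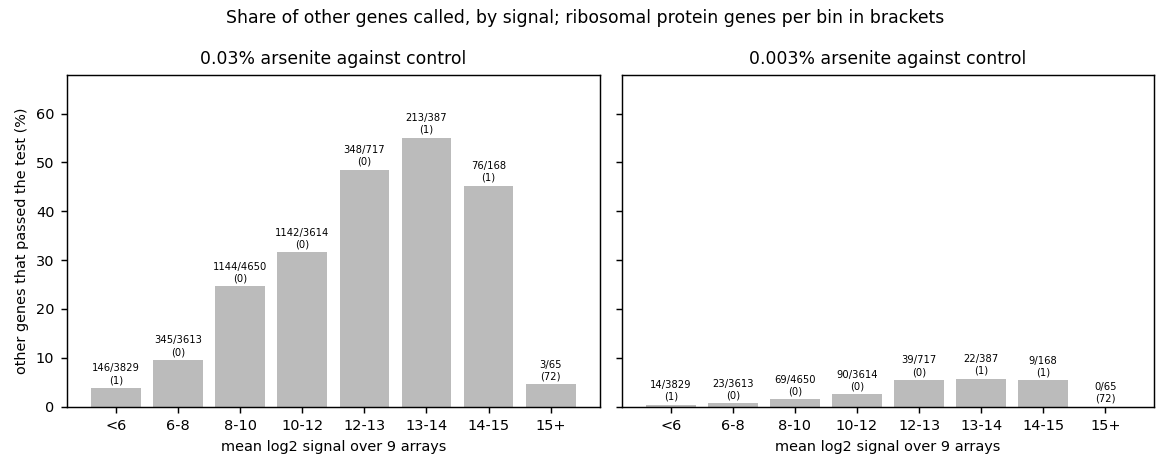
Share of genes other than the ribosomal protein genes that were called (y axis, %), by mean log2 signal over the 9 arrays (x axis), at 0.03% (left) and 0.003% arsenite (right). Above each bar stand the genes called of the genes tested and, in brackets, the number of ribosomal protein genes in that range, of which 72 lie at 15 or more, where 3 of 65 and 0 of 65 other genes were called.

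At the low dose none of the 75 genes was called and none had an unadjusted p under 0.05 in limma, where 1.55% of all genes were called and 11.7% had such a p. In the methods' analysis of variance without moderation none was called either, and 2 had an unadjusted p under 0.05. The median difference from control was 0.03 for the 75 genes and -0.01 for all genes. Above 0 lay 52 of the 75 genes, where 8246 of all 17118 genes did. Intervals lay within 1.2 fold for 12 genes, for 67 with a variance trend and robust estimation and for 48 without moderation, and within 1.5 fold for 74. Between the doses, 1 gene was called in the high dose against the low dose, where 16.8% of all genes were. It was again rpl-41.1, which was lower (9.49% of all genes were called lower) and was also the one gene with an unadjusted p under 0.05 in limma, where 28.8% of all genes had one. Without moderation 6 of the 75 had such a p, and with a variance trend and robust estimation 4 did. The shares over all genes in those fits are not given here. An adjusted p of at most 0.05 was found without moderation for 2 of the 75, and 1 of them also passed the fold threshold. Over all genes the median was -0.01 and 8718 of 17118 lay below 0. The median of the 75 genes was -0.08 and 69 lay below 0. It was -0.04 with 66 below 0 after centring on the median of all genes, and -0.02 with 55 below 0 after centring on other bright genes. After quantile normalization the median was -0.0011 and 38 lay below 0. That scaling cannot decide the question, since it can take away part of a shift shared by many of the brightest genes.

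Some arrays stood at one end of their group for most members. Of the 3 low dose arrays, replicate 1 had the highest signal of its group for 61 of the 75 genes. High dose replicate 2 had the lowest of its group for 59, and control replicate 1 the lowest of its group for 61. The medians of the 75 genes were 15.52, 15.40 and 15.56 on the high dose arrays, 15.66, 15.50 and 15.50 on the low dose arrays and 15.46, 15.58 and 15.56 on the control arrays. The groups overlapped, and the spread between arrays of one group was as wide as the distance between groups. For these arrays the medians over all genes stood at the other end of their group. Low dose replicate 1 had the lowest of its group, 8.48, while high dose replicate 2 and control replicate 1 had the highest of theirs, 8.55 and 8.57. The part of the scaling in this was not tested.

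The gene rpl-41.1 carries the name of a very small protein of the large subunit. Its signal was 13.128, 13.473 and 13.317 in high dose worms, 13.681, 13.967 and 13.779 in low dose worms and 13.963, 14.004 and 13.932 in control worms. Every high dose array lay below every low dose and control array, while the low dose and control arrays overlapped. The difference was -0.66 at the high dose (SE 0.13, 95% interval -0.96 to -0.36, limma adjusted p = 0.010), with control 1.58 times the high dose. The call was made in all 20 alternative fits, whose adjusted p reached 0.048 at most. At the low dose the difference was -0.16 (SE 0.13, 95% interval -0.46 to 0.14, limma adjusted p = 0.72). Between the doses it was -0.50 (SE 0.13, limma adjusted p = 0.036), a call made in 11 of 20 alternative fits. The adjusted p was 0.109 without high dose replicate 1 and 0.085 without high dose replicate 3. It was 0.099 without low dose replicate 2, 0.086 without low dose replicate 3, and 0.063, 0.0596 and 0.0597 without control replicates 1, 2 and 3.

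Its neighbour on chromosome I, rpl-41.2, carries the same number. It had a signal of 15.49, 15.38 and 15.48 in high dose worms, 15.65, 15.43 and 15.42 in low dose worms and 15.46, 15.55 and 15.59 in control worms. The groups overlapped, and the difference at the high dose was -0.09 (SE 0.11, 95% interval -0.34 to 0.16, limma adjusted p = 0.66). Both copies were read by probesets marked _x_at, which may also detect related transcripts, so the signals of the copies cannot be taken as fully separate. The difference between the copies' responses was not tested.

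The gene rpl-42, named after its values were seen, gave a dim and scattered signal. It was 5.27, 3.96 and 6.30 in high dose worms, 7.39, 5.08 and 6.45 in low dose worms and 6.25, 6.79 and 6.39 in control worms. The groups overlapped, and the difference of -1.30 at the high dose had an interval of -2.97 to 0.37 (limma adjusted p = 0.27).

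**Figure D4:**
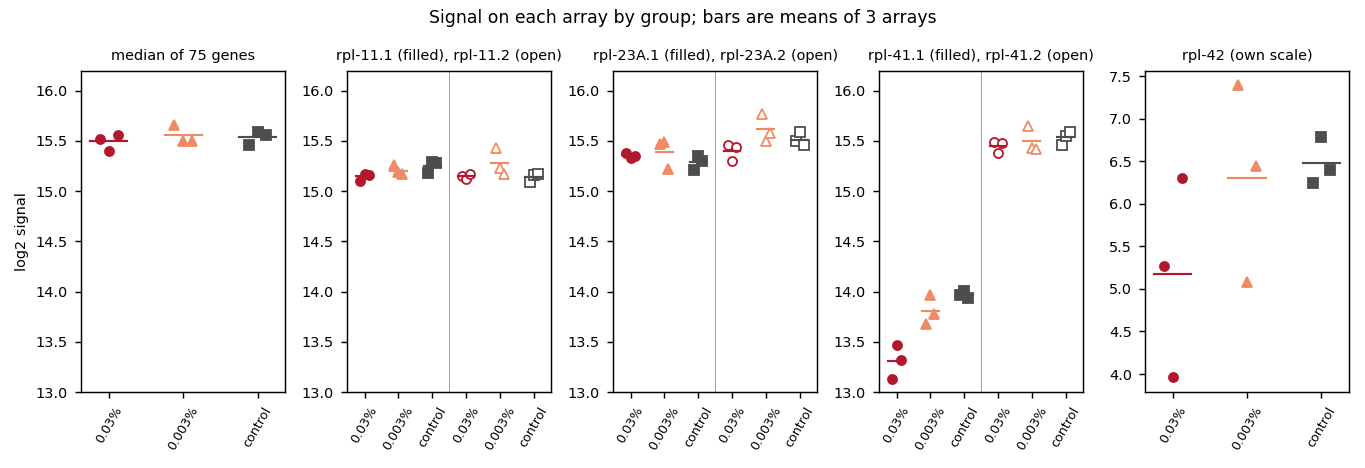
Log2 signal on each array (points) with group means (bars), at 0.03%, 0.003% and control. From left to right stand the median of the 75 genes, 3 pairs of gene copies on one scale, and rpl-42 on a scale of its own; only rpl-41.1 has high dose arrays, at 13.13 to 13.47, that lie clear of both other groups.

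The other genes with 2 copies were rpl-11 and rpl-23A. The protein uL5, encoded by rpl-11.1 and rpl-11.2, binds 5S ribosomal RNA together with the product of rpl-5. The signal of rpl-11.1 was 15.10, 15.18 and 15.16 in high dose worms, 15.26, 15.19 and 15.17 in low dose worms and 15.18, 15.29 and 15.28 in control worms. Its high dose arrays lay just below the control arrays, by a difference of -0.10 (95% interval -0.32 to 0.12, limma adjusted p = 0.53). For rpl-11.2 the signal was 15.15, 15.12 and 15.17 in high dose worms, 15.43, 15.23 and 15.17 in low dose worms and 15.09, 15.17 and 15.17 in control worms. Its difference was 0.01 at the high dose (95% interval -0.24 to 0.25) and 0.14 at the low dose (95% interval -0.11 to 0.38), and neither was called.

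The copies rpl-23A.1 and rpl-23A.2 encode uL23, a protein near the exit of the peptide tunnel. The signal of rpl-23A.1 was 15.38, 15.33 and 15.35 in high dose worms, 15.46, 15.49 and 15.22 in low dose worms and 15.21, 15.35 and 15.30 in control worms, a difference of 0.07 at the high dose (95% interval -0.19 to 0.32). That of rpl-23A.2 was 15.46, 15.30 and 15.44 in high dose worms, 15.77, 15.50 and 15.58 in low dose worms and 15.50, 15.59 and 15.46 in control worms, a difference of -0.11 (95% interval -0.37 to 0.15). Neither was called, and the high dose and control arrays overlapped for both.

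Besides rpl-41.1, 5 genes had all high dose arrays below all control arrays, which makes 6 of 75, where 21.7% of all genes did so. They were rps-4, rpl-7, rpl-7A, rpl-11.1 and rpl-27A, with differences of -0.15, -0.09, -0.15, -0.10 and -0.13, none of them called. No gene had all high dose arrays above control, where 16.7% of all genes did. The low dose arrays lay above control for rpl-7, rpl-10L, rpl-11.2 and rpl-29 (4 of 75, where 8.62% of all genes did), with differences of 0.08, 0.04, 0.14 and 0.09, and below it for no gene, where 9.59% of all genes did. High dose arrays lay below low dose arrays for 7 of 75 genes, where 18.2% of all genes did: rps-4, rpl-7, rpl-23A.2, rpl-27A, rpl-29, rpl-32 and rpl-41.1. The gene rps-6, whose product is the phosphorylated target of S6 kinase in animals, had a signal of 15.63, 15.50 and 15.72 in high dose worms, 15.85, 15.70 and 15.68 in low dose worms and 15.61, 15.69 and 15.64 in control worms. The high dose and control arrays overlapped, with a difference of -0.03 (95% interval -0.28 to 0.22).

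A further 36 probesets assigned to one of the 75 genes alone were not used for the values above. None of them was called in any of the 3 comparisons, and none had an unadjusted p under 0.05 in limma when every probeset was tested separately. Some lay lower on the scale: a second probeset of rps-18, with a mean of 11.75, differed by 0.03 (SE 0.12) and one of rps-20, with a mean of 12.47, by 0.06 (SE 0.12) at the high dose. Dimmer still, a probeset with a mean of 7.54 differed by -0.22 (SE 0.36) there. Another with a mean of 6.07 differed by 0.72 (SE 0.71), so such dim probesets left wide room for a change. Of the 75 probesets used, 25 were marked _at, 37 _s_at and 13 _x_at, and the last 2 kinds may detect more than one transcript. The 75 genes lay on all chromosomes, 23 on I, 10 on II, 17 on III, 16 on IV, 7 on V and 2 on X. Chromosome I held 30.7% of them and 14.5% of all genes tested, II 13.3% and 17.7%, III 22.7% and 13.2%, IV 21.3% and 15.6%, V 9.33% and 25.2%, and X 2.67% and 13.8%. In 3 places 2 of them were next to each other among protein-coding genes: rps-10 with rpl-24, rpl-41.1 with rpl-41.2, and rps-14 with rpl-36.

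The stalk of the large subunit, which recruits the elongation factors, is built from the products of rplp-0, rplp-1, rplp-2.1 and rplp-2.2. The signal of rplp-0 was 15.40, 15.35 and 15.44 in high dose worms, 15.54, 15.34 and 15.39 in low dose worms and 15.39, 15.50 and 15.47 in control worms. The groups overlapped, and the difference at the high dose was -0.05. It was -0.08 for rplp-1, -0.08 for rplp-2.1 and -0.16 for rplp-2.2. None of these 4 genes was called in any comparison, nor were rpsa-1, fau-1, ubq-2 and rack-1, which encode further proteins of the ribosome or bound to it. In limma 0 of these 8 genes had an unadjusted p under 0.05, and their median was -0.04 at the high dose.

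Genes that act with the ribosome were counted in the same fit, where 20.0% of all genes were called at the high dose. Of 9 genes listed for elongation, the step that adds amino acids to the chain, none was called in any comparison in limma, and the median was -0.12 at the high dose. The 1 gene of the list with an unadjusted p under 0.05 at the high dose was efk-1, which encodes a kinase of the elongation factor eEF2 and no elongation factor, at 0.56 (adjusted p = 0.105). It was called there when the dimmer 50% of genes were left out, with the mean of its probesets, and with a variance trend and robust estimation. Of 29 initiation factor genes, 3 were called lower and none higher. They were eif-2Bgamma, a subunit of the exchange factor of eIF2, at -0.47 (adjusted p = 0.011), the eIF3 subunit gene eif-3.K at -0.40 (adjusted p = 0.033) and the cap-binding gene ife-3, named after its values were seen, at -0.38 (adjusted p = 0.034). The calls of eif-3.K and ife-3 were made in 10 of 20 and 9 of 21 alternative fits and were both lost without any one high dose array, low dose replicate 3 or control replicate 1 or 2, with adjusted p up to 0.144 and 0.156. That of ife-3 was also lost without control replicate 3.

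Of 22 genes for ribosome assembly and RNA polymerase I, 2 were called higher and none lower at the high dose. That was 9.09% of the list, against 20.0% of all genes. The gene rpoa-12, for a subunit of RNA polymerase I, had 11.67, 12.08 and 11.74 in high dose worms, 10.87, 11.27 and 10.81 in low dose worms and 10.35, 10.45 and 10.42 in control worms. Both doses lay above control on every array, and the difference was 1.42 at the high dose (limma adjusted p = 9.21e-04), while that at the low dose was 0.58 (adjusted p = 0.21). The gene of the nucleolar GTPase nog-1 rose by 0.52 at the high dose (adjusted p = 0.016), with the call lost without high dose replicate 3 or without control replicate 1 or 2, where the adjusted p reached 0.059.

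The ribosome of mitochondria is a separate particle with its own proteins. Of its 59 genes, 9 were called lower and 2 higher at the high dose, and the median was -0.26. The calls made up 18.6% of the list, near the 20.0% of all genes. The largest decreases were those of mrpl-35, at -0.67 (adjusted p = 0.025), and mrpl-19, at -0.61 (adjusted p = 0.0097). The signal of mrpl-19 was 10.66, 10.87 and 10.82 in high dose worms, 11.25, 11.48 and 11.22 in low dose worms and 11.42, 11.43 and 11.33 in control worms, and the high dose arrays lay below both other groups. The call of mrpl-35 was lost without high dose replicate 1 or 3 or control replicate 1 or 2, with an adjusted p of up to 0.080. The gene mrpl-9 rose, with 13.15, 13.16 and 13.11 in high dose worms, 12.12, 12.64 and 12.26 in low dose worms and 11.63, 11.87 and 11.84 in control worms, a difference of 1.36 (adjusted p = 7.64e-04). The gene mrpl-50 rose by 0.49 (adjusted p = 0.014), with an adjusted p of up to 0.053 without high dose replicate 2 or control replicate 2.

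The list of TOR and eIF2 kinase signalling held 11 genes, with a median signal of 10.48. At the high dose 20.0% of all genes were called. At mean signals of 10 to 12, 31.6% of genes other than the ribosomal protein genes were called there. The list was not tested against these shares. Of its 11 genes, 3 (27.3%) were called higher and none lower at the high dose. They were pek-1, which encodes the eIF2 kinase of the endoplasmic reticulum, atf-4, a transcription factor whose translation rises in mammals when eIF2 is phosphorylated, and rsks-1, the S6 kinase. The signal of pek-1 was 10.59, 10.35 and 11.01 in high dose worms, 9.87, 9.77 and 9.63 in low dose worms and 9.32, 9.39 and 9.12 in control worms, a difference of 1.37 at the high dose (adjusted p = 0.0017). That of atf-4 was 13.51, 13.64 and 13.52 in high dose worms, 12.57, 13.01 and 12.52 in low dose worms and 12.22, 12.39 and 12.49 in control worms, a difference of 1.19 (adjusted p = 0.0016). For rsks-1, named after its values were seen, it was 0.94 (adjusted p = 0.012). None of 9 smg genes of nonsense mediated decay was called against control at either dose in limma, and none had an unadjusted p under 0.05. At the low dose no gene of any of these lists was called, where 1.55% of all genes were.

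**Figure D5:**
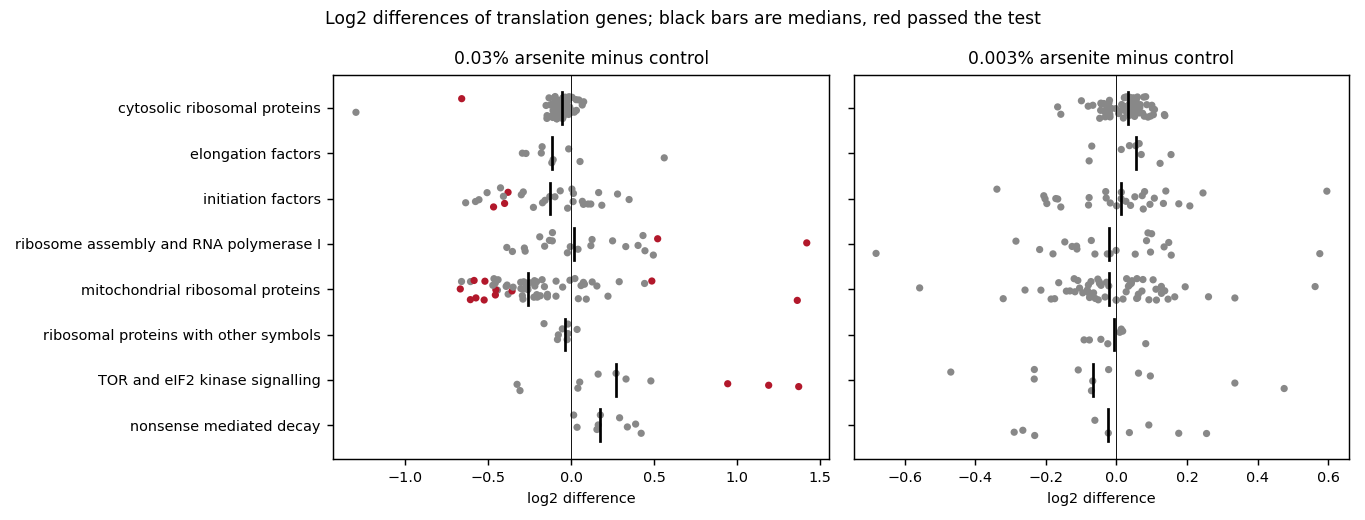
Log2 difference from control of each gene (points) at 0.03% (left) and 0.003% arsenite (right), for the 75 ribosomal protein genes and 7 other lists (that of elongation factors includes the kinase gene efk-1), with medians as black bars; the vertical position within a list has no meaning and the x axes of the panels differ. Red points passed the test. At 0.03% these included 1 of 75 ribosomal protein genes and 11 of 59 mitochondrial ones, where 20.0% of all genes passed. At 0.003% none did.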

How the data were processed

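The data came from 9 Affymetrix C. elegans arrays, 3 each for 0.03% and 0.003% sodium arsenite and control. The authors deposited log2 signals, 1 per probeset and array. RMA in Partek software is named in their methods, while the submitters' processing notes name Partek 6.4 and MAS5, so the scaling before deposit is unsettled. Of 22625 probesets, 77 controls, 895 without a gene and 887 with several genes were left out. The probeset with the highest mean stood for each of 17118 genes. Names came from the platform annotation and the RefSeq table of assembly WBcel235, where all 75 genes matched by identifier, while no sequence was used.

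Differences were tested with limma 3.58.1 (R 4.3.3) on the log2 values, in one model of the 3 groups without covariates (6 residual degrees of freedom, prior 1.45), with Benjamini-Hochberg adjustment per comparison. SEs and 95% intervals come from that model, and the number of arrays limits the precision. The fit was tested on simulated data. Alternatives were other scalings, probeset rules, filters, variance models, thresholds, groups fitted, leaving out each array, and a block for the replicate number. Centring on the 75 genes was added after the data were seen.

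The genes, lists and tests were chosen with earlier results of these data known. Genes named one by one were those called, those sharing a number (such as rpl-7 and rpl-7A), the stalk genes in place of rla genes, and 2 called genes each way per other list at the high dose. The genes cpr-1, prdx-2, col-38, efk-1, ife-3, rsks-1, rpl-42, rps-4, rps-6, rps-18, rps-20, rpl-29 and rpl-32 were named after their values were seen. The stalk and other current symbols were added to their list once the annotation had been read. Replicate numbers did not pair the arrays.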

Additional observations from a re-analysis of the deposited data

Results flagged for a closer look

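The signal of rpl-41.1 differed between the 2 doses by the test of that difference itself, by -0.50 on the log2 scale in the high dose against the low dose. All 3 high dose arrays (13.13, 13.47 and 13.32) lay below all 3 low dose arrays (13.68, 13.97 and 13.78), as was so for 18.2% of all genes. The call was made in 11 of 20 alternative fits, with adjusted p up to 0.155.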

How the results depend on the processing

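The median difference of the 75 genes was 0.031 after quantile normalization in the high dose against control, and -0.0011 in the high dose against the low dose. After centring on the median of all genes it was -0.026 and -0.044 in these comparisons. With _at probesets alone, 0 genes were called in each of these comparisons, since the probeset of rpl-41.1 is then left out. In the high dose against the low dose, 0 were called at 1.5 fold, with only the compared groups fitted or with centring on the 75 genes, and 0 to 1 with each array left out. The other alternatives kept the counts within 1.5 times. The replicate number as a block gave 1 call in the high dose against control, 0 in the low dose against control and 1 in the high dose against the low dose. It is no pairing: deviations of arrays with the same number correlated at -0.03 to 0.03. Over the genes named, 3219 values kept their sign and side of the threshold, 90 lost the call, 24 gained one and 162 changed sign, as listed next, none of them called in either fit. The signal near the top of the scale and 3 arrays per group limit what small differences can show.

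Quantile normalization turned the sign in the high dose against control for rpl-10a (0.044), rpl-13 (0.075), rpl-23 (0.085), rpl-35 (0.045), rpl-35A (0.028), rpl-36 (0.088), rpl-36A (0.036), rps-15 (0.031), rps-27A (0.010), rps-3 (0.045), rps-3A (0.039), rplp-0 (0.032), rplp-1 (0.0017), rplp-2.1 (0.0044), rps-6 (0.074), rpl-29 (0.049), and in the low dose against control for rpl-35 (0.0095), and in the high dose against low dose for rpl-10a (0.021), rpl-13A (0.042), rpl-23 (0.032), rpl-23A.1 (0.014), rpl-35 (0.035), rpl-36 (0.037), rpl-36A (0.016), rpl-41.2 (0.033), rps-15 (0.0043), rps-27 (0.0091), rps-3 (0.010), rps-3A (0.053), rplp-0 (0.040), rplp-2.1 (0.063). Centring on other bright genes turned the sign in the high dose against control for rpl-10a (0.026), rpl-13 (0.056), rpl-23 (0.050), rpl-36 (0.031), rpl-36A (0.022), rps-15 (0.024), rplp-0 (0.0053), rps-6 (0.031), rpl-29 (0.044), and in the high dose against low dose for rpl-11.1 (0.0015), rpl-23A.1 (0.022), rpl-36A (0.00068), rpl-41.2 (0.0047), rps-15 (0.0047), rps-3A (0.013), rplp-0 (0.031), rplp-2.1 (0.059), rps-20 (0.015). Centring on the median of all genes turned the sign in the high dose against control for rpl-13 (0.025), rpl-23 (0.019), rpl-29 (0.013), and in the low dose against control for rpl-27 (-0.0053), rplp-1 (-0.0022), and in the high dose against low dose for rpl-23A.1 (0.00097), rplp-0 (0.010), rplp-2.1 (0.038). Centring on the 75 genes, chosen after seeing the data, turned the sign in the high dose against control for rpl-10a (0.0099), rpl-13 (0.040), rpl-23 (0.034), rpl-36 (0.015), rpl-36A (0.0062), rps-15 (0.0075), rps-6 (0.015), rpl-29 (0.028), and in the low dose against control for rpl-27 (-0.012), rplp-1 (-0.0087), and in the high dose against low dose for rpl-11.1 (0.0028), rpl-23A.1 (0.023), rpl-36A (0.0019), rpl-41.2 (0.0060), rps-15 (0.0060), rps-3A (0.014), rplp-0 (0.032), rplp-2.1 (0.060), rps-20 (0.016). Averaging the probesets of a gene turned the sign in the high dose against control for rpl-11.2 (-0.013), rpl-35A (0.047), and in the low dose against control for rps-18 (0.051), rps-20 (-0.0032), and in the high dose against low dose for rpl-35A (0.032), rps-18 (-0.019), rps-20 (0.046). Using _at probesets alone turned the sign in the high dose against control for rpl-35 (0.029), and in the high dose against low dose for rpl-35 (0.080). With each array left out in turn, the high dose against control difference changed sign for rpl-11.2 (-0.020 to 0.019), rpl-13 (-0.043 to 0.036), rpl-23 (-0.039 to 0.035), rpl-36 (-0.055 to 0.020), rpl-36A (-0.092 to 0.056), rps-15 (-0.12 to 0.014), rps-3 (-0.12 to 0.0034), rps-3A (-0.13 to 0.00090), rps-6 (-0.077 to 0.030), rpl-29 (-0.037 to 0.0059), rps-18 (-0.043 to 0.086), rps-20 (-0.0038 to 0.070). With each array left out in turn, the low dose against control difference changed sign for rpl-10a (-0.0045 to 0.085), rpl-13 (-0.095 to 0.022), rpl-27 (-0.024 to 0.033), rpl-27A (-0.046 to 0.0069), rpl-35 (-0.090 to 0.061), rpl-36 (-0.011 to 0.089), rpl-36A (-0.062 to 0.087), rpl-41.2 (-0.11 to 0.0063), rpl-42 (-0.71 to 0.45), rpl-7A (-0.056 to 0.14), rps-15 (-0.021 to 0.059), rps-27 (-0.064 to 0.045), rps-27A (-0.022 to 0.081), rps-3 (-0.038 to 0.13), rps-3A (-0.13 to 0.032), rplp-0 (-0.083 to 0.018), rplp-1 (-0.024 to 0.034), mrpl-35 (-0.13 to 0.060), rsks-1 (-0.13 to 0.14), col-38 (-0.072 to 0.077), rps-4 (-0.10 to 0.0096), rpl-32 (-0.023 to 0.060), rps-18 (-0.15 to 0.049). With each array left out in turn, the high dose against low dose difference changed sign for rpl-10L (-0.011 to 0.11), rpl-13 (-0.024 to 0.092), rpl-23A.1 (-0.12 to 0.011), rpl-35 (-0.15 to 0.0058), rpl-36A (-0.12 to 0.033), rpl-41.2 (-0.094 to 0.019), rps-3A (-0.11 to 0.055), rplp-0 (-0.071 to 0.030), rplp-2.1 (-0.026 to 0.035), rps-18 (-0.018 to 0.18).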

Other observations

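Another 3 probesets are assigned to a ribosomal protein gene together with a second gene and were left out above. The one shared by rpl-37.1 and rpl-37.2 averaged 15.59 ± 0.13 in high dose worms, 15.63 ± 0.16 in low dose worms and 15.63 ± 0.07 in control worms (SD, n = 3 each). The probeset shared by rpl-7A and Y73B3A.18 averaged 15.47 ± 0.08, 15.60 ± 0.12 and 15.57 ± 0.07 in the high dose, low dose and control groups, and that of rpl-8 and B0250.3 averaged 15.93 ± 0.07, 15.90 ± 0.05 and 15.93 ± 0.11. The groups overlapped for each of them. They were not tested.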
